A study of Rattus norvegicus with 4 samples.

Results

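Scavenger and mannose receptors are the surface and endosomal proteins with which a macrophage binds and takes up particles, modified lipoproteins and sugars. The list examined holds 10 genes, Msr1, Marco, Cd36, Cd68, Mrc1, Cd163, Scarb1, Scarb2, Olr1 and Stab1. Members were found by the transcript accession printed for each probe, matched to rat RefSeq symbols. Of the 10 genes, 9 had at least 1 probe, with 11 probes and 20 spots on each array, out of 16526 named genes with a value on every array. No probe accession mapped to Stab1, an endocytic receptor of macrophages and sinusoidal endothelium, and it was not analysed here.

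The cells were NR8383, a line of rat alveolar macrophages that began from lung lavage and is used as a model of the macrophage that meets inhaled particles. All 4 samples belong to 1 group: cells labelled with 20 passages and given zinc iron oxide, a zinc ferrite particle (ZnFe2O4) coded NRCWE021, at 17 µg/mL over an exposure of 4 h. The design describes 4 biological replicates for each of an exposed and an unexposed condition. The unexposed arrays were not analysed here, so the values below are levels in exposed cells, and none of them is a change with exposure. A cell line at 1 passage label stands for 1 source of cells, and the labels describe the cultures as part adherent and part floating, so the values average over both forms.

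Macrophages carry several unrelated families of scavenger receptor. Class A receptors such as Msr1 and Marco have collagen-like stalks and bind charged surfaces, including uncoated particles and bacteria. Class B receptors (Cd36, Scarb1 and Scarb2) share a large outer loop between membrane spans, and Cd36 and Scarb1 bind lipids and lipoproteins. Olr1 and Mrc1 bind through C-type lectin folds. In the lung, Marco is known from mouse work as a receptor of alveolar macrophages for unopsonised particles, and Mrc1 is a common surface marker of that cell.

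Cd36, Cd68, Scarb1, Scarb2, Mrc1, Olr1 and Msr1 each had a probe well above background on every array. Marco and Cd163 passed as well above background on replicates 2 and 3 but not on replicates 1 and 4. In all, 7 of the 9 measured receptors (77.8%) were well above background on all 4 arrays, and the same 7 were on replicates 1 and 4. The background for these counts is 42.4% of all named genes on all 4 arrays and 45.9% on replicates 1 and 4. A gene is counted when any of its probes carries the flag by which the scanner software marks a spot as well above background. The flag did not follow the ratio of a raw spot to its local background alone. A second Cd36 probe at 4.08 times on replicate 3 lacked it, while Msr1 at 2.26 times on replicate 4 carried it. The counts describe these arrays, and no test of a condition was possible with 1 group.

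Signals below are processed signals, the brightness of a spot in intensity units after the scanner software subtracted background and smoothed spatial trends. Signals of different probes are not ranked against each other, because probes for the same amount of RNA can differ in brightness.

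The arrays differed in the signal of probes for sequences that are not from rat cells, so each dim receptor is read beside them. Each array carries 96 probes for ERCC control RNAs, artificial transcripts used as standards, with 35 spots per probe. No label says whether ERCC RNA was added, so added RNA cannot be told apart from signal without it. Their median signal was 3.63 on replicate 1 and 3.44 on replicate 4, against 359 on replicate 2 and 90.4 on replicate 3. By the flag, 1, 84, 65 and 1 of the 96 ERCC probes were well above background on replicates 1 to 4. Over all named genes the same flag was carried by 52.2%, 91.5%, 75.3% and 46.2%. Replicates 2 and 3 thus stood apart, and each receptor is given on every array and beside the ERCC probes of the same array. The 308 spots of the negative control probe were dim on all arrays, with medians of 3.45, 23.0, 12.9 and 3.34. No gene spot was saturated.

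The cells were checked against markers of macrophages and of other cell types. Of 10 measured macrophage markers, 9 were well above background on all 4 arrays, beside 42.4% of all named genes. Among the 9 were Lyz2 (lysozyme), Spi1 (the factor PU.1) and Ptprc (CD45). The exception was Adgre1, the macrophage antigen F4/80, which failed the flag on every array. Above every ERCC probe of the array there were 5 of the 10 on all 4 arrays, beside 7.86% of named genes. On replicates 1 and 4 there were 9, beside 37.4%. On replicate 2, 21 ERCC probes were as bright as Ptprc or brighter. Another 18 measured markers were those of epithelium, fibroblasts, endothelium, T cells, B cells and neutrophils. Of these 18, 1 carried the flag on replicates 1 and 4, the endothelial cadherin Cdh5, beside 45.9% of all named genes. On replicate 2, 17 of the 18 carried the flag, and on replicate 3, 13 did, beside 91.5% and 75.3% of all named genes. The summed signal of these 18 markers was 185, 13059, 2064 and 106 on replicates 1 to 4, so it was high on the arrays where the ERCC probes were bright. Their part in the receptor signals was not tested.

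**Figure D1:**
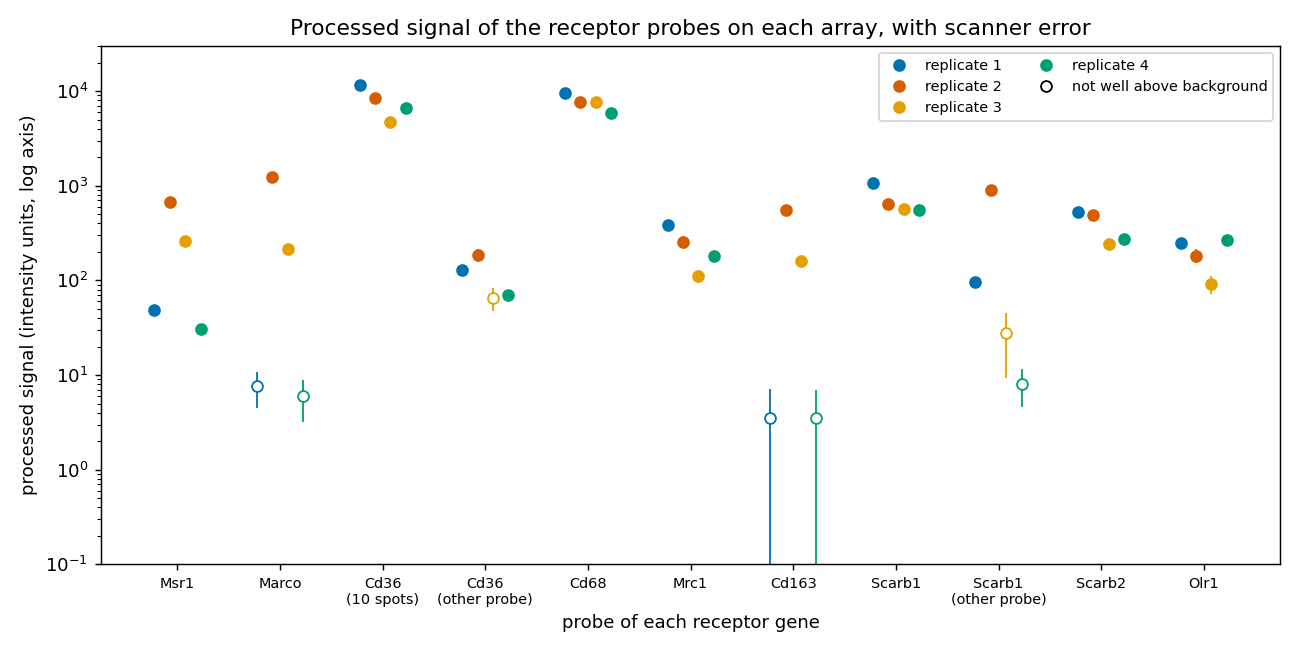
Processed signal in intensity units (log axis) of the 11 probes for 9 receptor genes, with 1 point for each replicate array and bars for the error that the scanner software gives for 1 spot, cut where they reach below the axis. Open points were not well above background. Cd68 and the brighter Cd36 probe are at 4685 or higher on all 4 arrays, while Marco and Cd163 are at 7.63 or lower on replicates 1 and 4 and at 159 or higher on replicates 2 and 3.

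Among the class A receptors, Msr1 encodes SR-A, the first macrophage scavenger receptor described, which takes up acetylated lipoprotein. Its single probe read 48.5, 672, 258 and 30.5 intensity units on replicates 1 to 4. The flag was set on all 4 arrays, yet the highest signal was 22.0 times the lowest, with replicate 2 high and replicates 1 and 4 low. On replicate 2, 21 of the 96 ERCC probes were as bright or brighter, on replicate 3 there were 3, on replicate 1 there was 1 and on replicate 4 none.

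Marco, named for its collagenous structure, had a signal of 7.63 on replicate 1 and 6.07 on replicate 4, with scanner errors of 3.17 and 2.85. On replicates 2 and 3 it read 1243 and 216. The raw spot was 1.65 and 1.89 times its local background on replicates 1 and 4, against 40.7 and 11.2 times on replicates 2 and 3. The bright readings thus came from the arrays on which most ERCC probes were bright too. On replicates 1 to 4, 7, 3, 6 and 3 of the 96 ERCC probes matched or exceeded Marco. Its signal passed the 95th percentile of the ERCC probes on replicates 2 (1077) and 4 (4.61). It was below that percentile on replicates 1 (8.78) and 3 (219.6). On replicate 4 Marco lacked the flag and lay above the threshold by less than its scanner error.

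Of the class B receptors, Cd36, the fatty acid translocase that also binds oxidised lipoprotein, has 2 probes. The brighter probe is printed in 10 spots on each array. Over the spots kept it read 11619.5, 8501, 4685 and 6682 on replicates 1 to 4, from 8, 9, 8 and 10 spots. The spots of 1 array varied by 3.63%, 2.52%, 4.93% and 13.2% (coefficient of variation). The unscaled signal was highest on replicate 1 and lowest on replicate 3, while the level scaled to each array, described further on, was highest on replicate 4 (7.21) and lowest on replicate 2 (3.32). No ERCC probe reached it on any array. The second Cd36 probe read 130, 185, 65.4 and 70.8 and was well above background on replicates 1, 2 and 4. The 2 probes thus disagree on detection on replicate 3, and on replicate 2 the second probe lay below 77 of the ERCC probes.

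Scarb1 encodes SR-B1, the receptor that takes cholesterol esters from high-density lipoprotein. Its brighter probe read 1075, 645, 570 and 557 on replicates 1 to 4 and was well above background on all of them. The highest of these signals was 1.93 times the lowest. No ERCC probe reached it on replicates 1, 3 and 4, while 21 did on replicate 2. The other Scarb1 probe read 96.6, 896, 27.5 and 8.08 and carried the flag on replicates 1 and 2. The 2 probes therefore put the same 4 samples in different orders, and replicate 1 was 11.9 times replicate 4 by the dimmer probe against 1.93 times by the brighter one.

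Scarb2, also called LIMP-2, is a lysosomal membrane protein that carries glucocerebrosidase to the lysosome. Its probe read 523, 488, 243 and 275 on replicates 1 to 4, a range of 2.15 times. All 4 arrays carried the flag. On replicates 1 and 4 no ERCC probe was as bright, on replicate 3 there were 3 and on replicate 2 there were 35.

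Cd68, or macrosialin, is a glycoprotein of late endosomes and lysosomes and a general marker of macrophages. It read 9443, 7650.25, 7585 and 5909 on replicates 1 to 4. These 4 values lie within 1.60 times of each other before scaling, and no ERCC probe reached them on any array. The raw spot was between 214 and 319 times its local background.

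The C-type lectin fold is found in Mrc1, the mannose receptor, and in Olr1, or LOX-1, which binds oxidised lipoprotein. Mrc1 read 387, 258, 112 and 182 on replicates 1 to 4 and was well above background on all of them. Replicate 1 was high and replicate 3 low, with a range of 3.46 times. No ERCC probe was as bright as Mrc1 on replicates 1 and 4, but 66 were on replicate 2 and 37 on replicate 3. Olr1 read 248, 183, 91.1 and 266 and also carried the flag on all arrays. Its unscaled signal was highest on replicate 4, and 77 and 48 ERCC probes were as bright on replicates 2 and 3.

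Cd163 encodes the receptor for haemoglobin bound to haptoglobin, a member of the cysteine-rich scavenger family and the antigen of the rat macrophage antibody ED2. It read 3.53 and 3.51 on replicates 1 and 4, where the scanner error was as large as the signal, at 3.54 and 3.52. On replicates 2 and 3 it read 550 and 159. The dim pair stood beside medians of 3.45 and 3.34 for the negative control spots of those arrays, and the bright pair lay below 32 and 15 of the ERCC probes. Cd163 did not pass the 95th percentile of the ERCC probes on any array.

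Marco and Cd163 were the 2 receptors of 9 flagged on replicates 2 and 3 but missed on replicates 1 and 4, a pattern that 27.7% of all named genes showed. When a gene had to exceed the 95th percentile of the ERCC probes of its array, 2 of 9 receptors passed on all 4 arrays, Cd36 and Cd68, beside 19.6% of named genes. That percentile was 8.78, 1077, 219.6 and 4.61 intensity units on replicates 1 to 4. On replicates 1 and 4 alone 7 passed, the same 7 that carry the flag there, beside 56.2% of named genes. The flag passed 45.9% of named genes on these 2 arrays, so this threshold was looser there. The match of the 7 therefore adds no support to their detection. The strictest threshold, above every ERCC probe, was passed on all arrays by Cd36 and Cd68 again, beside 7.86% of named genes. On replicates 1 and 4 it was passed by 6 receptors, all but Msr1 of the 7, beside 37.4%. On replicates 1 to 4 singly, 7, 3, 5 and 8 of the 9 receptors passed the 95th percentile, beside 61%, 24.1%, 35.6% and 63.8% of named genes. The 8 on replicate 4 include Marco, which lacked the flag there. Above every ERCC probe there were 6, 2, 3 and 7 receptors, beside 37.5%, 8.45%, 21.2% and 44.3%. These 2 thresholds were chosen after the data had been seen.

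**Figure D2:**
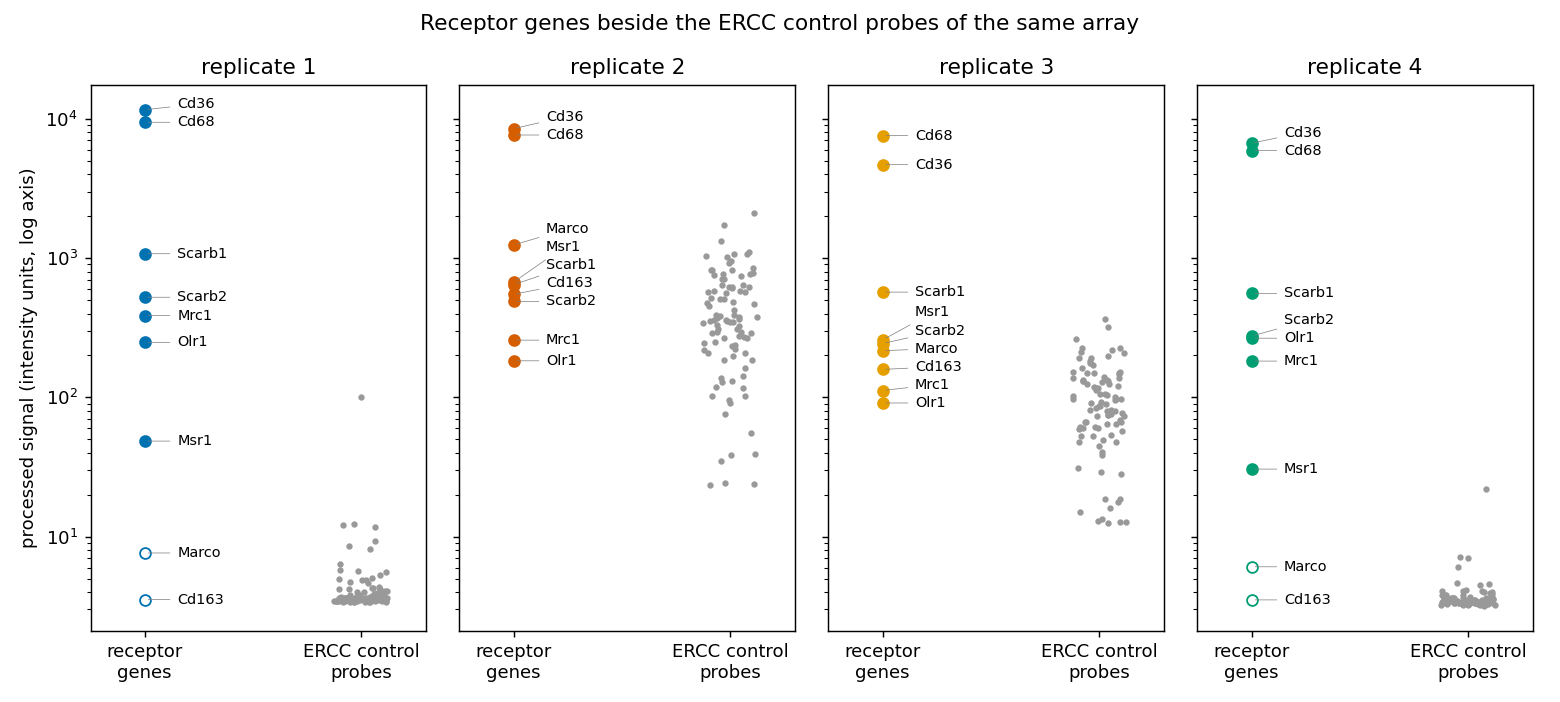
Processed signal in intensity units (log axis) of the 9 receptor genes (coloured, brightest probe of each) and of the 96 ERCC control probes (grey, median of 35 spots each) in 1 panel per replicate. Open points were not well above background. The receptors other than Marco, Cd163 and Msr1 lie above all grey points on replicates 1 and 4, and only Cd36 and Cd68 do on replicate 2.

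Sequences next to the transcript starts are shown for 2 receptors that were detected on every array, Cd68 and Mrc1, and for the 2 that were not detected on replicates 1 and 4, Marco and Cd163, so that the start regions can be read beside the signals. They come from RefSeq (GRCr8) and hold the 250 bases before the start, 5′ to 3′ on the strand of the gene. Of the 10 genes, 8 were in the table, and Msr1 and Scarb1 were not. Both strands were searched for 3 motifs: GAGGAA, the core bound by PU.1, the factor that directs macrophage genes; TGACNNNGC, the core of the antioxidant response element; and TCACGTG, an E-box of lysosomal genes. Capitals mark matches.
Cd68, chr10:54882442-54882691, minus strand: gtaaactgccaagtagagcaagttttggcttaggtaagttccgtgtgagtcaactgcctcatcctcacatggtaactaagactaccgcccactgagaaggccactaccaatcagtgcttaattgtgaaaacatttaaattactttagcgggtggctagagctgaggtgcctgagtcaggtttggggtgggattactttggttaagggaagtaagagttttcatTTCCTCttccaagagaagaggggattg
Mrc1, chr17:82157475-82157724, plus strand: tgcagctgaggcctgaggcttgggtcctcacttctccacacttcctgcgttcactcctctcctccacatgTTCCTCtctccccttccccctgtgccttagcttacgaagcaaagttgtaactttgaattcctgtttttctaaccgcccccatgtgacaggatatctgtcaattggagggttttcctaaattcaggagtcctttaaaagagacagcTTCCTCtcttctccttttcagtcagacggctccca
Marco, chr13:34201256-34201505, minus strand: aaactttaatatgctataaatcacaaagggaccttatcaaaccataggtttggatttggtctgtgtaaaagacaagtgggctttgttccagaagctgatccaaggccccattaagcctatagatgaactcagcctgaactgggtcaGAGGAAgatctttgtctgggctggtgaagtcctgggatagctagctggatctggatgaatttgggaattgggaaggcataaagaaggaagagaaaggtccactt
Cd163, chr4:158770524-158770773, plus strand: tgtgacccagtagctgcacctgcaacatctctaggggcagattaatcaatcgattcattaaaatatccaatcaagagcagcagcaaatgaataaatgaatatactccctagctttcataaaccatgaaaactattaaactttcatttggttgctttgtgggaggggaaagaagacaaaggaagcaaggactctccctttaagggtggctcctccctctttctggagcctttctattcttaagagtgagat

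GAGGAA was found before the start of 6 of the 8 receptors, in a table where 23.3% of 33469 start regions of the same length hold it. The matches lay 27 to 22 bases before the start of Cd68, 35 to 30 and 180 to 175 before Mrc1, 46 to 41 before Olr1, 77 to 72 before Stab1, 104 to 99 before Marco and 249 to 244 before Cd36. Cd163, undetected on replicates 1 and 4, and Scarb2, detected on every array, held none. Neither TGACNNNGC (10.1% of all start regions) nor TCACGTG (2.79%) was found in the 8 windows, and no matches overlapped. A match is only a run of letters here and does not show that a factor binds.

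To set arrays side by side, the level of a probe was taken as its log2 signal minus the 75th percentile of all probes of the array. As a signal, that percentile was 88.7, 851, 220 and 45.2 on replicates 1 to 4. It was thus higher on replicates 2 and 3, where the ERCC probes were bright. The 7 receptors detected on all arrays had a median level of 1.13 (from -0.39 to 5.51), beside 1.34 for 6904 named genes whose chosen probe was detected on all arrays. Cd68 had a level of 5.51 ± 1.77 and Cd36 of 5.49 ± 1.93 (SD, n = 4 here and below). The lipoprotein receptor Scarb1 had 2.05 ± 1.94 and Scarb2 had 1.13 ± 1.73. These levels use the brightest probe of a gene, and with the mean of both probes Cd36 had 2.40 and Scarb1 0.36. By level, replicates 1 and 4 lay above replicates 2 and 3 for 6 of the 7 receptors. By unscaled signal this held only for Olr1, so the order is relative to the percentile subtracted. Mrc1 had 0.36 ± 2.00 and Olr1 0.14 ± 2.25, while Msr1 had -0.39 ± 0.47 and was the only one of the 7 whose replicates 1 and 4 were the 2 lowest.

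The median SD of the 7 receptors was 1.93, beside 1.55 for all 6904 genes. With replicates 1 and 4 alone the levels were 6.88 for Cd68, 7.12 for Cd36, 3.61 for Scarb1, 2.58 for Scarb2, 2.07 for Mrc1, 2.02 for Olr1 and -0.72 for Msr1. Between these 2 arrays the receptors differed by a median of 0.17, beside 0.20 over all genes. On this scaling Scarb1 differed by 0.023, Scarb2 by 0.045 and Mrc1 by 0.12. Olr1 differed by 1.07, higher on replicate 4, and 77 of 6904 genes (1.12%) differed by as much or more. These differences depended on the processing. Scaled on the brightest spike-in probes, they were 0.46 for Scarb1, 0.44 for Scarb2, 0.60 for Mrc1 and 0.59 for Olr1. With normexp background correction they were 0.34, 0.32, 0.39 and 0.33 for the same 4 receptors, and with the mean of both its probes Scarb1 differed by 1.29. A single spot per array stands behind each of these levels except that of Cd36.

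The spread depended on how the arrays were scaled. When arrays were instead scaled on their 3 brightest spike-in probes, for control RNAs of known amount, the SD was 0.18 for Cd68, 0.28 for Scarb1, 0.51 for Cd36, 0.55 for Scarb2, 0.70 for Mrc1 and 0.74 for Olr1. Msr1 went the other way, with an SD of 2.19. Which receptor varied least between cultures therefore cannot be read from 1 scaling, and the order of the 4 arrays changed with it as well.

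**Figure D3:**
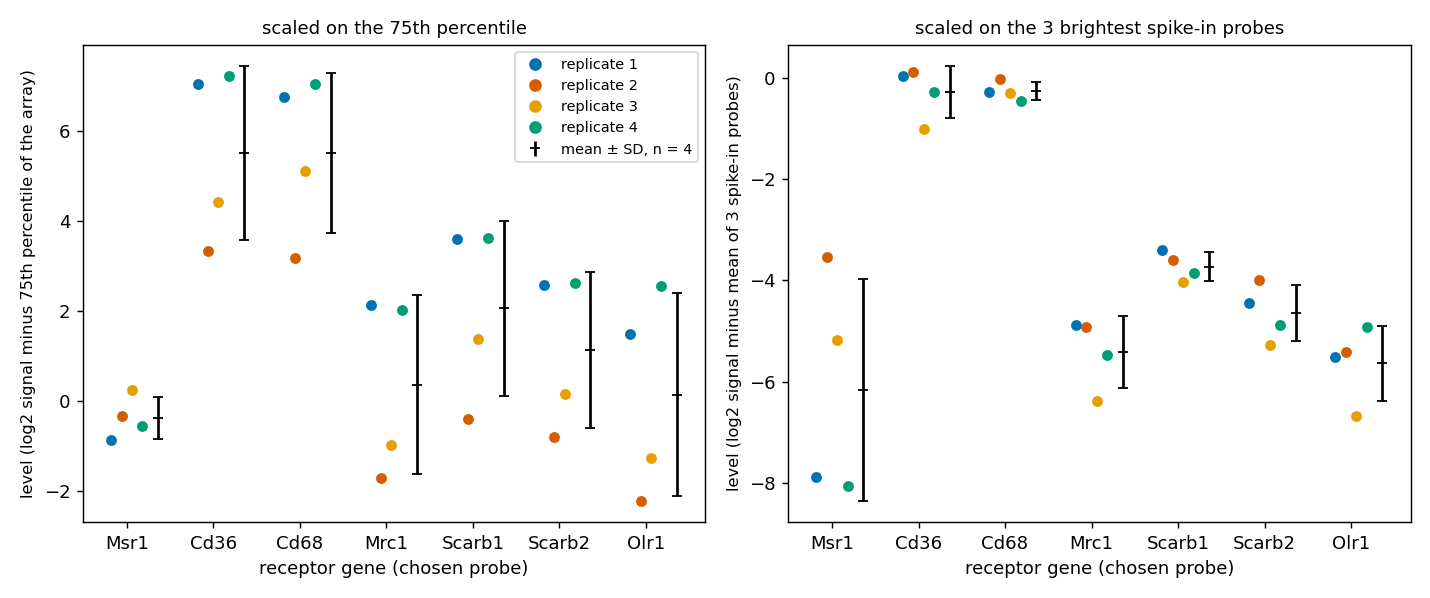
Level of the 7 receptors detected on all arrays, on each replicate (points) with mean ± SD over n = 4 (black), scaled on the 75th percentile of all probes at the left and on the 3 brightest spike-in probes at the right, both in log2 units. At the left replicates 1 and 4 lie above replicates 2 and 3 except for Msr1, whose SD is 0.47. At the right the SD of Cd68 is 0.18 and that of Msr1 is 2.19.

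For each of the 7 receptors the named gene with the most similar profile over the 4 arrays was sought among 6897 genes, as the smallest root mean square difference between the levels after each profile was centred. Cd68 was closest to Shbg, sex hormone-binding globulin (0.021), which lies on the same chromosome with 4 protein-coding genes between them. Positions were looked up only for the closest gene of each receptor, and a link by position was not tested. Cd36 was closest to Sar1b, a GTPase of vesicle export (0.017), and Scarb1 to Mvp, the major vault protein (0.013). The partners of Scarb2, Mrc1 and Msr1 were Stap2 (0.013), Mtrex (0.039) and Btbd7 (0.039). Profiles over 4 arrays that differ mainly by array are shared widely: 390 genes lay within 0.1 of Scarb1, 210 of Scarb2 and 208 of Cd36. There were 36 within 0.1 of Mrc1, 27 of Cd68 and 7 of Msr1. Olr1 had no gene within 0.1, and its closest was Cox6c at 0.13.

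A further 27 genes of particle, sugar and dying-cell uptake were listed, and 23 were measured. Of these, 7 carried the flag on replicates 1 and 4, beside 45.9% of all named genes, and 6 did on every array, beside 42.4%. Another 12 were flagged on replicates 2 and 3 but missed on replicates 1 and 4, beside 27.7%. Among 11 other scavenger receptors, 2 were detected on replicates 1 and 4. Cxcl16, a membrane-bound chemokine that binds oxidised lipoprotein, read 1312, 1003, 560 and 663 on replicates 1 to 4. Lrp1, a large endocytic receptor, read 157, 835, 314 and 83.5. Scara3, Scara5 and Colec12 lacked the flag on replicates 1 and 4.

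Of 7 measured C-type lectin receptors, 2 were detected on replicates 1 and 4, beside 45.9% of all named genes. Clec7a, or dectin-1, the receptor for fungal glucan, read 6892, 4320.15, 2173 and 3871, and no ERCC probe reached it on any array. Mrc2, a collagen receptor of the mannose receptor family, read 579, 737, 351 and 211. The flag was missing for Pla2r1, Clec4e and Clec4d on these 2 arrays. Clec7a was thus the single gene of the 23 that passed every ERCC probe on all arrays, as Cd36 and Cd68 did. So did 7.86% of all named genes.

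The receptors for dying cells gave 3 of 5 on replicates 1 and 4, beside 45.9% of all named genes. Tyro3, a receptor kinase that binds Gas6 and protein S, read 752, 684, 365 and 310.2. Adgrb1, also called BAI1, a phosphatidylserine receptor, read 41.5, 1452, 283 and 26.0. Axl, a kinase receptor related to Tyro3, read 192, 22.9, 40.0 and 65.1 and was flagged on replicates 1 and 4 but missed on replicates 2 and 3. Axl was thus the reverse of Marco and Cd163. Mertk and Megf10 were undetected on replicates 1 and 4.

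**Figure D4:**
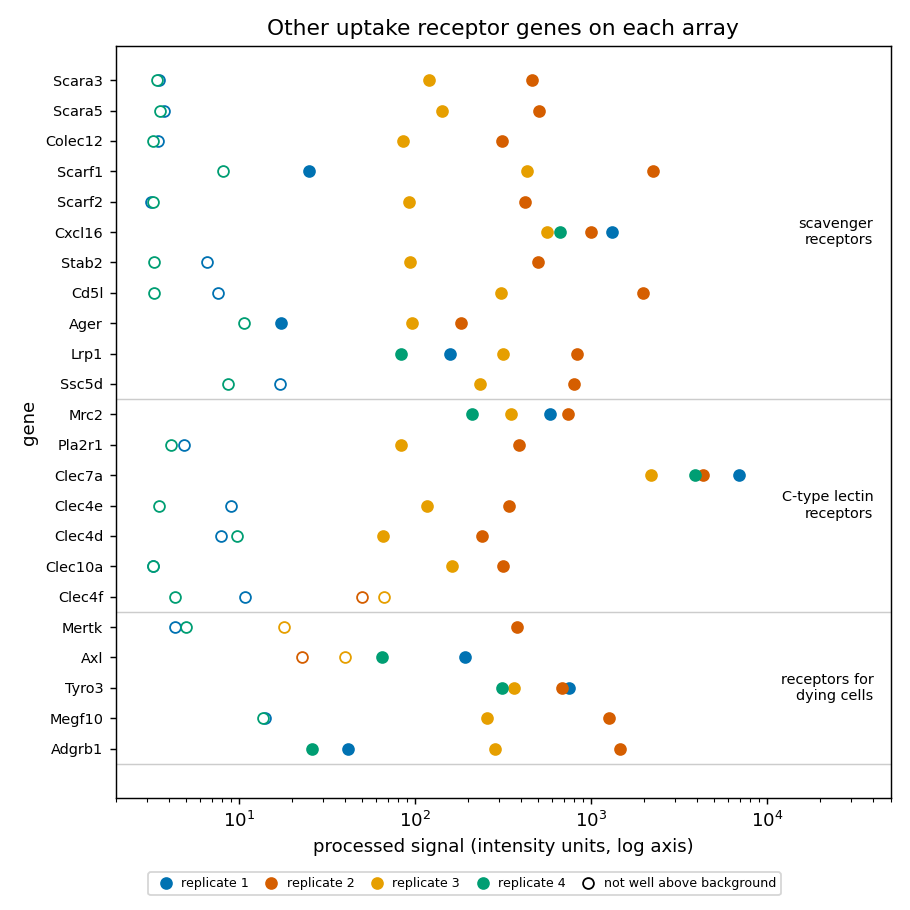
Processed signal in intensity units (log axis) of 23 other uptake receptor genes, with 1 point for each replicate array, in 3 classes. Open points mark genes with no probe well above background on that array. Clec7a is at 2173 or higher on all 4 arrays, and Scara3 and Scara5 are at 3.73 or lower on replicates 1 and 4.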

How the data were processed

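RNA of 4 samples of exposed NR8383 cells was read on 1-colour (Cy3) Agilent rat arrays, 1 array per sample. Per the file headers and the submitters' processing notes, the deposited intensity values were extracted with Agilent Feature Extraction 11.0.1.1. Background was subtracted and spatial trends removed within each array by that program. Normalization between arrays is not given in the sources used here. The deposited value table equals the median spot intensity on all 62976 spots of each array and was used only for this check.

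Control spots and spots flagged as non-uniform or population outliers were left out. Log2 signals of repeat spots were averaged per probe, and the 75th percentile of the array was subtracted, giving the log2 level from the deposited intensity. Accessions were matched without versions to RefSeq (GRCr8), which named 21109 of 45598 probes. A gene is detected if most kept spots of any of its probes are flagged well above background. Its level comes from the probe whose mean signal is highest. The other flags ("positive and significant", outlier marks) are also deposited by the authors. Named genes are the 10 receptors, the first 4 detected and first 3 undetected genes of each class of other uptake genes as listed, and the most similar gene of each receptor. Outside that rule, the named cell type markers (Lyz2, Spi1, Ptprc, Adgre1, Cdh5, Pparg), Scarf1 and Cd5l were chosen after their values were seen. The members and lists were chosen with earlier results of these data known. No contrast exists within 1 group, so no p-value is given, and 4 arrays limit the precision. Alternatives were another flag, other thresholds on control probes, normexp with an offset of 50 (limma 3.58.1), other scalings, all probes of a gene, outlier spots kept and each replicate left out. The similarity search and thresholds were tested on simulated data. Python 3.11.15 was used.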

Additional observations from a re-analysis of the deposited data

How the results depend on the processing

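The count of 7 receptors on all 4 arrays was 7 when replicate 1, 2, 3 or 4 was left out. It was 8 with the positive and significant flag, for which no share of all named genes was computed. With a threshold of 3 SD over the dimmest spike-in probe it was 2 (beside 15.4% of named genes). It was also 2 above the 95th percentile of the ERCC probes (beside 19.6%) and 2 above every ERCC probe (beside 7.86%). On replicates 1 and 4 it was 7 by the flag (beside 45.9% of named genes) and 7 above the 95th percentile of the ERCC probes (beside 56.2%). Above every ERCC probe it was 6 there (beside 37.4%). With the spike-in threshold it was 7 there and with the positive and significant flag 8, both without a share. For the other uptake genes, the 6 of 23 on all arrays were 12 with the positive and significant flag, again without a share. They were 1 with the spike-in threshold (beside 15.4% of named genes) and 1 above every ERCC probe (beside 7.86%). When a replicate was left out they were 6 to 8. Their 7 on replicates 1 and 4 were 12 with the other flag and 11 above the 95th percentile of the ERCC probes (beside 56.2% of named genes). The median level of the receptors, 1.13, was -1.70 when arrays were scaled on probes detected on all arrays and -4.65 on spike-in scaling, since both change what the level is relative to, and it lay between 0.63 and 1.77 when a replicate was left out. The median SD, 1.93, was 0.40 and 0.55 under these scalings, 0.12 with replicates 1 and 4 alone, and 1.41 to 2.19 when a replicate was left out. The median difference between replicates 1 and 4, 0.17, was 0.33 with normexp, 0.099 with quantile normalization, 0.44 on spike-in scaling and 0.29 with the mean of all probes. The cause of the other shifts was not tested. No paired analysis was possible because the samples form 1 group. On replicates 2 and 3 the signal of the control probes limits what can be said of a dim receptor.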

Other observations

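Among genes outside the receptor list, Pparg and Lyz2 read brightly on all 4 arrays, while Scarf1 and Cd5l did so only on replicates 2 and 3. The nuclear receptor Pparg, which directs the development of alveolar macrophages in the mouse, read 7599, 4216, 3453 and 3888 intensity units on replicates 1 to 4, and Lyz2 read 74992, 49272, 44153 and 41096. Both were above every ERCC control probe on all 4 arrays. Scarf1, a scavenger receptor of endothelium and macrophages chosen here after its values were seen, read 25.1, 2232, 430 and 8.09. On replicates 2 and 3 no ERCC probe was as bright, and on replicates 1 and 4 there was 1 each. Scarf1 lacked the flag on replicate 4. Cd5l, a secreted macrophage protein named in the same way, read 7.64, 1969, 309 and 3.28 on replicates 1 to 4. It lacked the flag on replicates 1 and 4, where 7 and 85 ERCC probes were as bright or brighter. On replicates 2 and 3 there were 1 and 2.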
